A study of Mus musculus with 26 samples.

Results

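Iron-regulated transcripts and ferritin were followed as 8 transcripts of mouse caudate putamen chosen by gene symbol, by a rule without measured values but with earlier results of these data known: Fth1, Ftl1, Tfrc, Aco1, Ireb2, Slc11a2, App and Trf. All 8 of 8 symbols were present in each of 3 tables of group means, which listed 8576 transcripts for GS LRRK2 TG mice, 8576 for GS/DA LRRK2 TG mice and 9561 for LRRK2 KO mice. Together they listed 9602 distinct transcripts. The 8 were split by their iron-responsive element (IRE) into Fth1, Ftl1 and App, with an element or an IRE-like element in the 5′UTR, and the other 5.

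The study asked how LRRK2 and its kinase activity act on translation in the striatum, by ribosome footprinting and RNA-Seq of the same brain region. GS LRRK2 TG mice carried a LRRK2 transgene with the G2019S substitution, and GS/DA LRRK2 TG mice a transgene with G2019S and the kinase-dead D1994A substitution; both were expressed from a tetracycline-controlled (Tet-off) promoter through a CaMKII-tTA driver, which acts in forebrain neurons, and were compared with non-TG control mice. LRRK2 KO mice were compared with WT mice. By the labels all mice were on C57BL/6 and 3 months old, and each library was made from a pool of mice of mixed sex. The labels gave 3 footprinting and 3 RNA-Seq libraries for non-TG control, 2 and 2 for GS LRRK2 TG, 2 and 2 for GS/DA LRRK2 TG, 3 and 2 for WT, and 3 and 2 for LRRK2 KO. A further ventral midbrain footprinting library of WT and of LRRK2 KO had no column in the tables. The labels give a common set of non-TG control libraries for both transgenic comparisons, and which of them each control column holds is not stated, so values of the pair of comparisons are set side by side and are not taken as independent.

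Cells keep free iron within bounds largely at the level of mRNA. When iron is scarce, the iron regulatory proteins bind IREs, hairpins with a CAGTGN loop; binding in the 5′UTR, as in the ferritin mRNAs, blocks initiation of translation, and binding in the 3′UTR, as in Tfrc, protects the mRNA from decay. In brain, ferritin stores iron in glia and neurons, and oligodendrocytes make most of the transferrin of the tissue.

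Levels are given in normalized reads, which are reads in the coding sequence (CDS) divided by the size factor of the library, and TE is the log2 of the footprinting mean over the RNA-Seq mean of a group. A TE difference is TE of the genotype minus TE of its control. The tables hold group means only. Each mean of 2 libraries falls on a grid set by both size factors, from which whole reads of each library were recovered for 10 of 12 columns, with between 98.4% and 99.9% of transcripts giving exactly 1 pair of reads. The footprinting and the RNA-Seq column of the non-TG control in the GS LRRK2 TG table gave no grid, so that group is a mean without spread and its comparison has no test. WT and LRRK2 KO footprinting columns resolved to 2 libraries, although the labels give 3. The authors describe the third pair as a further experiment, and the columns themselves carry no replicate numbers. Recovered libraries are called A and B within an assay and matched across groups by the library difference they share. The letters carry no replicate number, and A of footprinting is not tied to A of RNA-Seq. By the paper, the lysate of each pool was divided between both assays. Neither the model nor the TE pairings use that link, so some pairings join libraries of different pools. Where several pairs of reads gave the same mean, the pair nearest to that shared difference was taken: this held for Fth1 in RNA-Seq in both transgenic tables, and for App, in the GS/DA LRRK2 TG table only, in control footprinting and in RNA-Seq of both groups. Recovered libraries held between 7464226 and 19760157 reads in footprinting and between 9478127 and 15420625 in RNA-Seq in the transgenic tables, and between 2984353 and 6281268 in footprinting and between 3207422 and 10975234 in RNA-Seq in the LRRK2 KO table.

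Libraries of the same group stood apart. In RNA-Seq of the transgenic tables the SD over transcripts of the log2 ratio of library A to library B was between 1.48 and 1.75, against 0.33 to 0.40 in footprinting. Across transcripts, which are not independent replicates, that RNA-Seq ratio had a Pearson r with the GC share of the CDS between -0.745 and -0.782. In the LRRK2 KO table the SD was between 0.66 and 0.67 in footprinting and between 0.62 and 0.68 in RNA-Seq. Every RNA-Seq and TE value of the members rests on such pairs of libraries, so values are given for A and B, and also with a library left out where that turned the direction of a value past 1.25-fold. Both control columns of the transgenic tables were set against each other as well. Over all transcripts the log2 ratio of the GS LRRK2 TG table's control to the GS/DA LRRK2 TG table's control had a median of -0.34 in footprinting and -0.13 in RNA-Seq. Lrrk2 in control footprinting stood at 2524 normalized reads in the GS LRRK2 TG table and at 1335 in that of GS/DA LRRK2 TG, a log2 ratio 1.26 above that median, and 0 of 8576 transcripts lay further from it. Of the 8 members, Tfrc lay furthest from the median ratio in footprinting, by -0.17, with 224 transcripts further out, while Fth1, Ftl1, App, Slc11a2, Aco1, Ireb2 and Trf lay between -0.03 and 0.01 of it. In RNA-Seq the members lay between -0.27 for Tfrc and 0.26 for Ftl1. The reason for these differences was not tested, and the TE differences of the members in GS LRRK2 TG are given also against the control means of the GS/DA LRRK2 TG table, each assay scaled by the median ratio.

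Lrrk2 itself was read as a check of the labels. In GS/DA LRRK2 TG libraries A and B it had 7267 and 4766 normalized footprinting reads, against 1445 and 1224 in non-TG control. LRRK2 KO libraries had 102 and 149.7 footprinting reads against 400.3 and 690.1 in WT, and 423 and 270.0 RNA-Seq reads against 1278 and 733. The groups did not overlap in these comparisons. In RNA-Seq, GS/DA LRRK2 TG had 5038 and 404 reads of Lrrk2 against 5233 and 560.2 in non-TG control, and the groups overlapped. GS LRRK2 TG libraries had 7052 and 3320.5 footprinting reads against a control mean of 2524, and 3549.6 and 214 RNA-Seq reads against 2105. Both lay above the control mean in footprinting and on either side of it in RNA-Seq; the log2 change of the mean in footprinting was 1.04, or 2.30 with the other table's control means. By limma the log2 change of Lrrk2 in footprinting was 2.14 ± 1.44 (SE) in GS/DA LRRK2 TG (unadjusted p = 0.189) and -2.003 ± 0.41 in LRRK2 KO (unadjusted p = 0.00188), and neither passed the adjusted test. With the library sets as a block Lrrk2 passed in LRRK2 KO in both assays, with an SE of 0.19. The model holds 1 variance per transcript for both assays, so an SE in footprinting also carries the spread of the RNA-Seq libraries.

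The UTRs of the members were searched for the IRE in GENCODE vM1 gene models on NCBIM37 (mm9). The motif was C, 5 bases, CAGTGN, 5 bases on the sense strand, with the 5 bases on both sides of the loop pairing and at most 1 mismatch. Of all genes with an annotated 5′UTR, 0.948% held a match there (189 of 19945), and of those with an annotated 3′UTR, 4.05% (811 of 20007). Fth1, Ftl1, Slc11a2 and Tfrc held matches; none was found in App, Aco1, Ireb2 or Trf. A match is a description of the letters, and no match says nothing of the IRE-like element of App. The 7 matches are printed to show how alike the ferritin loops and stems are and how the Tfrc copies differ, with the CAGTGN loop in capitals and 6 bases on each side of the motif.
Fth1, 5′UTR: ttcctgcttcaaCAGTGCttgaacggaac
Ftl1, 5′UTR: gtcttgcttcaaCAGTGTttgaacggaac
Slc11a2, 3′UTR: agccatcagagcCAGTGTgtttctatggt
Tfrc, 3′UTR, most upstream: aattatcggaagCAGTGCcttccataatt
Tfrc, 3′UTR, next: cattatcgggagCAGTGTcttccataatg
Tfrc, 3′UTR, next: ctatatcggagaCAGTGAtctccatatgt
Tfrc, 3′UTR, most downstream: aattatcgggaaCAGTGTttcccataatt
The Fth1 match lay in exon 1 of 4 on the plus strand at chr19:10057222-10057250, with 120 bases between the loop and the CDS. In Ftl1 it lay in exon 1 of 4 on the minus strand at chr7:52715149-52715177, 158 bases before the CDS. The Slc11a2 match, with 1 mismatch in the stem, lay in exon 16 of 16 on the minus strand at chr15:100225584-100225612, 43 bases after the CDS. All 4 Tfrc matches lay in exon 19 of 19 on the plus strand, at chr16:32631305-32631333, chr16:32631684-32631712, chr16:32631749-32631777 and chr16:32631796-32631824.

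**Figure D1:**
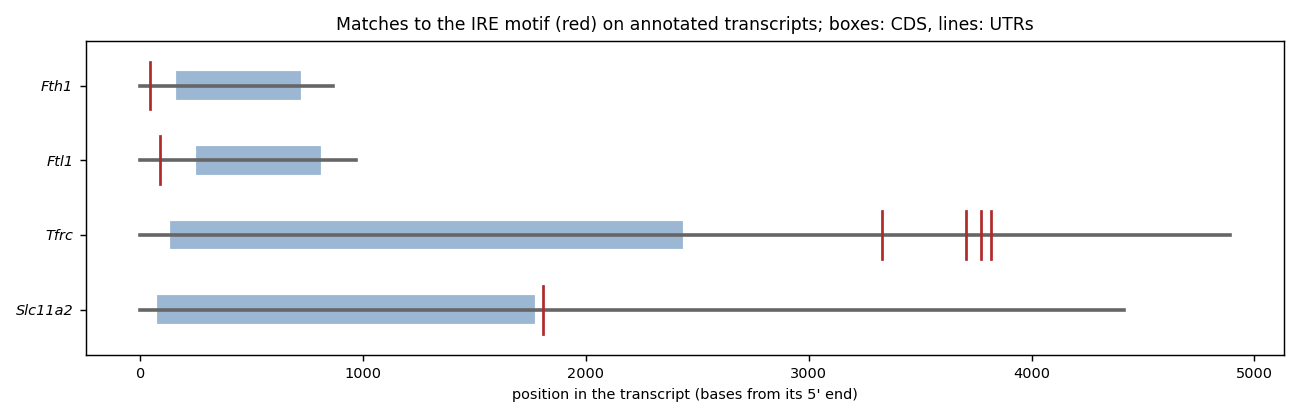
Annotated transcripts of Fth1, Ftl1, Slc11a2 and Tfrc drawn to scale in bases, with UTRs, CDS and the matches to the IRE motif marked. The ferritin matches lie near the 5′ end, and the 4 Tfrc matches lie together in the 3′UTR.

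In the non-TG control of the GS/DA LRRK2 TG table, levels per kb of CDS in RNA-Seq ran from Fth1 at 51001 normalized reads per kb over App (9476), Ftl1 (9180), Trf (3795), Slc11a2 (223), Aco1 (209.8) and Ireb2 (177) to Tfrc (154), beside a median of 485 over all transcripts. The libraries of App and Ftl1 overlapped, and so did those of each neighbour from Slc11a2 down to Tfrc; the libraries of the other neighbours in that order did not overlap. In footprinting the order was App (14734 per kb), Fth1 (11516), Trf (3337), Ftl1 (2468), Tfrc (403), Ireb2 (363), Aco1 (239) and Slc11a2 (148), beside a median of 474, and there Tfrc and Ireb2 were the neighbours that overlapped. In WT the RNA-Seq order was again led by Fth1 at 18597 per kb, then App at 3749, with App and Ftl1 overlapping and Ireb2, Aco1, Slc11a2 and Tfrc each overlapping the next. WT footprinting ran from App (2912 per kb) and Fth1 (2660), which overlapped, to Slc11a2 (34.1), which lay below Tfrc (87.9) in each library. The GS LRRK2 TG table's control had Fth1 first in RNA-Seq, at 51292 per kb, and App first in footprinting, at 11767, with no spread to set the neighbours against.

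In the group means of the controls, TE was lower for both ferritins than for every other member. Fth1 had a TE of -2.49 in the control of the GS LRRK2 TG table, -2.15 in the recovered non-TG control and -2.81 in WT, at percentiles 1.2, 1.53 and 1.23 of all transcripts. Ftl1 had -2.36, -1.89 and -2.61, at percentiles 1.60, 2.37 and 1.77. Both ferritin transcripts thus had fewer footprints per RNA-Seq read than nearly all other transcripts of each table. Over the pairings of a footprinting with an RNA-Seq library, TE of Fth1 ran from -2.68 to -1.44 in the recovered non-TG control and from -3.20 to -2.27 in WT, and TE of Ftl1 from -2.78 to -0.64 and from -3.00 to -2.18. In that non-TG control the pairings of Ftl1 overlapped those of Slc11a2, which ran from -1.19 to 0.12, and those of Fth1 did not. Tfrc stood at the other end in the transgenic tables, with a TE of 1.28 and 1.38 at percentiles 97.1 and 96.2, against -0.04 and percentile 85.9 in WT. Its pairings ran from 0.55 to 2.94 in non-TG control and from -0.81 to 0.81 in WT. The RNA-Seq library ratio of the transgenic tables went with the GC share of the CDS. That share was 41.3% in Tfrc and 42.3% in Ireb2, and from 50.2% in Fth1 to 58.7% in Ftl1 among the other members. The median over all transcripts of those tables was 52.9%. The part of GC in these TE values was not tested. Ireb2 had a TE of 0.96, 1.03 and -0.12, App of 0.50, 0.64 and -0.36, Aco1 of -0.05, 0.19 and -0.26, Trf of -0.47, -0.19 and -1.09 and Slc11a2 of -0.79, -0.59 and -1.54 in the same 3 controls. The median TE over all transcripts was -0.17, 0.04 and -0.64. The group means put App above the median in each table, but its pairings in WT ran from -2.05 to 1.28, on either side of that median; in non-TG control they ran from 0.43 to 0.83.

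The deposited folding energy of the 5′UTR, the lowest over the isoforms of a gene, was -197.3 kcal/mol for Fth1, -148.7 for Aco1, -133.5 for Tfrc, -85.6 for Ftl1, -62.9 for App, -47.4 for Slc11a2, -26.7 for Trf and -23.61 for Ireb2. Its median was -85.6 kcal/mol over Fth1, Ftl1 and App and -47.4 over the other 5. Whether folding energy and TE are related among the members was not tested.

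Fth1 encodes the ferritin heavy chain, which oxidises iron for storage. In GS/DA LRRK2 TG libraries A and B it had 6765 and 5873 normalized footprinting reads, against 6755 and 5821 in non-TG control. RNA-Seq gave 15875 and 39002 reads against 18329 and 37364. Library A was the higher in footprinting and the lower in RNA-Seq in both groups, and the groups overlapped in both assays. RNA-Seq pairs of Fth1 were chosen by the nearest-pair rule, so their likeness between groups is partly set by that choice. The log2 change of Fth1 in the group means was 0.01 in footprinting and -0.02 in RNA-Seq, the TE difference was 0.03, and limma gave 0.08 ± 0.77 (SE) for TE with unadjusted p = 0.920. In LRRK2 KO, Fth1 had 1892.5 and 1245 footprinting reads against 1456 and 1448 in WT, and 12086 and 12828 RNA-Seq reads against 13297 and 7011. The LRRK2 KO footprinting libraries lay on either side of WT, and WT library B was the low one of the RNA-Seq libraries. Its log2 change was 0.11 in footprinting and 0.29 in RNA-Seq, or -0.09 in RNA-Seq without WT library B and 0.83 without WT library A, and its TE difference was -0.18, with -0.29 ± 0.50 and unadjusted p = 0.583 by limma. For Fth1 in GS LRRK2 TG, libraries A and B had 5699.7 and 4889 footprinting reads against a control mean of 4985, and 16528 and 42075 RNA-Seq reads against 28005. The control mean lay between the libraries in both assays, and the TE difference of Fth1 was 0.02, or -0.12 with the other table's control means.

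Ftl1 encodes the ferritin light chain, which helps the mineral core of the shell to form. GS/DA LRRK2 TG libraries A and B had 1522 and 1115 footprinting reads of Ftl1, against 1612 and 1099 in non-TG control. In RNA-Seq they had 2047 and 8441 against 2518 and 7562. The groups overlapped in both assays, and RNA-Seq library B exceeded A in each group. The TE difference was -0.10 in the group means and 0.04 ± 1.15 by limma (unadjusted p = 0.974), so the sign differed between the mean of libraries and the mean of their logarithms. In LRRK2 KO, Ftl1 had 326 and 278 footprinting reads against 338 and 282 in WT, and 2023 and 2323 RNA-Seq reads against 2263 and 1526. The footprinting libraries of LRRK2 KO and WT interleaved, and WT library B was again the low one in RNA-Seq. Its log2 change in RNA-Seq was 0.20, with -0.06 without WT library B and 0.51 without WT library A. The TE difference of Ftl1 was -0.24, with -0.26 ± 0.38 and unadjusted p = 0.518 by limma. For Ftl1 in GS LRRK2 TG, libraries A and B had 1243 and 931 footprinting reads against a control mean of 1069.9, and 2207 and 9730.3 RNA-Seq reads against 5495. The control mean lay between them in each assay, and the TE difference was -0.10, or -0.36 with the other table's control means. Reads of Ftl1 can also come from or map to other loci: 89.3% of the 28-base windows of its CDS occurred elsewhere in the genome, over 24 loci, against 26.4% for Fth1 over 3 loci and 0 for each of the other 6 members. How reads shared between loci were counted, and their part in the ferritin values, was not tested.

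**Figure D2:**
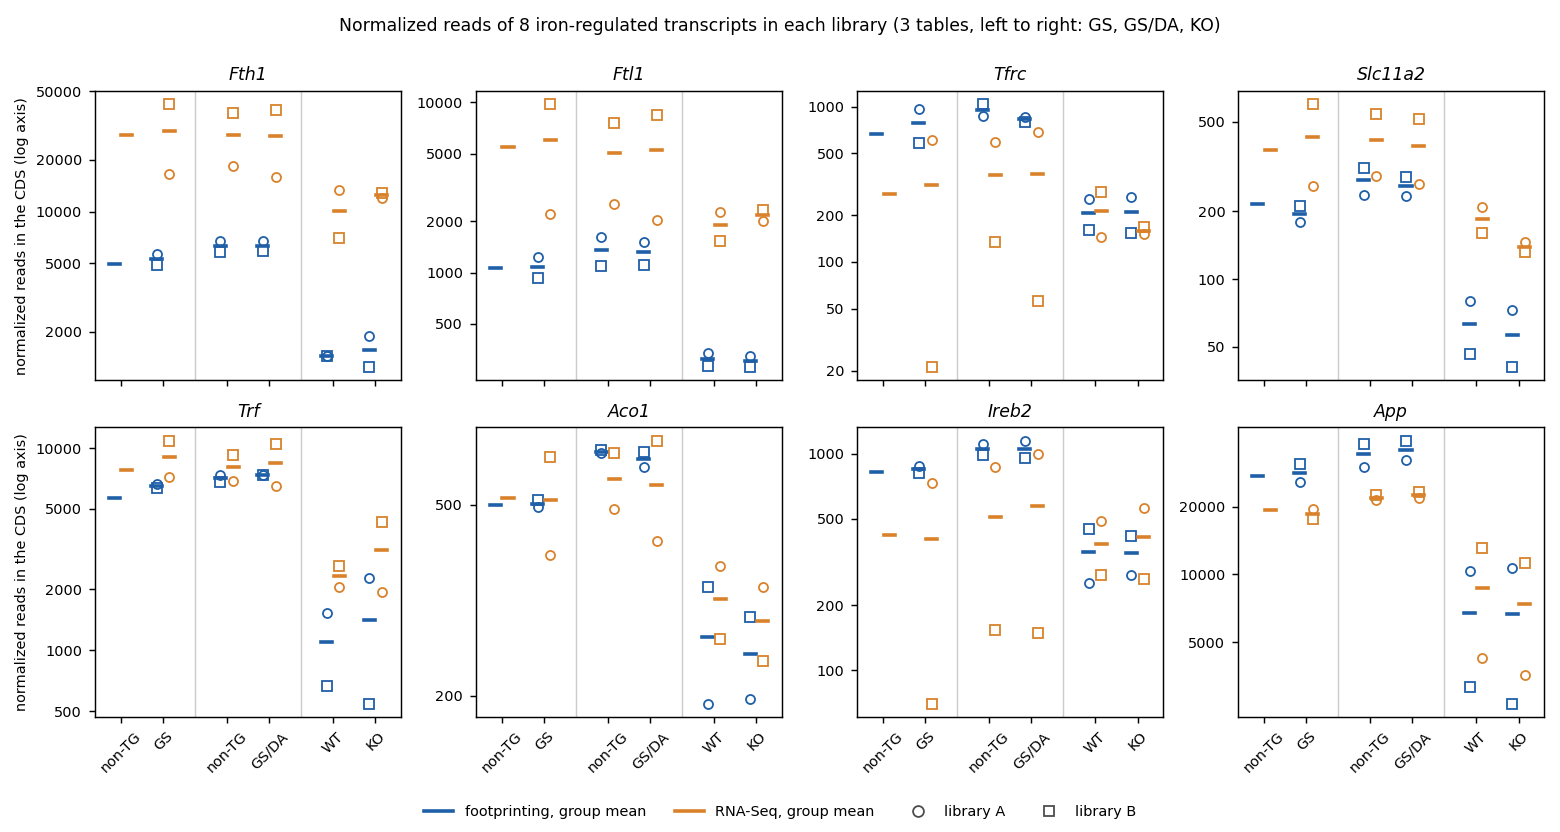
Normalized reads in the CDS (log axis) of the 8 transcripts in footprinting (blue) and RNA-Seq (orange), with bars for group means and circles and squares for recovered libraries A and B. RNA-Seq libraries A and B of Tfrc and Ireb2 stand far apart in the transgenic tables in each group with recovered libraries, and those of App lie close together.

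Tfrc encodes the transferrin receptor, which takes up iron-loaded transferrin. GS/DA LRRK2 TG libraries A and B had 862 and 791 footprinting reads of Tfrc, against 866 and 1033 in non-TG control. RNA-Seq gave 684 and 55.9 reads against 592 and 135. The footprinting libraries did not overlap, with GS/DA LRRK2 TG the lower, but library A of either group differed by little; in RNA-Seq library A was far above B in both groups and they overlapped. Of the 8 members, 1 did not overlap in footprinting in this comparison (Tfrc), against 24.3% of all transcripts, and 0 did not overlap in RNA-Seq, against 3.35%. The log2 change of Tfrc was -0.20 in footprinting, where limma gave -0.19 ± 1.19 (unadjusted p = 0.876), and 0.03 in RNA-Seq. That SE is the same for both assays, and with the library sets as a block it was 0.31 (unadjusted p = 0.555). Its TE difference was -0.23 in the group means and 0.27 ± 1.68 by limma (unadjusted p = 0.876), so the sign turned with the scale of averaging. In LRRK2 KO, Tfrc had 263 and 154 footprinting reads against 253 and 161 in WT, and 152 and 167 RNA-Seq reads against 144 and 282. WT lay inside the range of LRRK2 KO in footprinting, and WT RNA-Seq library B stood above the other RNA-Seq libraries. The log2 change was 0.01 in footprinting and -0.42 in RNA-Seq, and the TE difference was 0.43, with 0.32 ± 0.57 and unadjusted p = 0.593 by limma. Both rested on that library: without WT RNA-Seq library B the RNA-Seq change was 0.14 and the TE difference -0.13. Without LRRK2 KO footprinting library A the TE difference was -0.01, and without RNA-Seq libraries B of both groups it was -0.065. Tfrc in GS LRRK2 TG libraries had 971 and 587 footprinting reads against a control mean of 668, and 607 and 21.0 RNA-Seq reads against 275. The control mean lay between libraries in both assays, and the TE difference was 0.03, or 0.13 with the other table's control means.

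Slc11a2 encodes DMT1, which carries ferrous iron out of endosomes. In LRRK2 KO it had 146 and 132 RNA-Seq reads against 209 and 160.2 in WT, and 72.6 and 40.6 footprinting reads against 80.2 and 46.6. In RNA-Seq LRRK2 KO lay below WT in every library; in footprinting the groups overlapped. It was the 1 of 8 members that did not overlap in RNA-Seq in this comparison, against 14% of all transcripts, while 0 of 8 did not overlap in footprinting, against 12.6%. The log2 change in RNA-Seq was -0.41, and limma gave -0.37 ± 0.34 (SE) with an unadjusted p of 0.309, which did not pass. With a library left out the change stayed between -0.59 and -0.20. The TE difference was 0.24, with 0.23 ± 0.48 and unadjusted p = 0.650 by limma. Slc11a2 in GS/DA LRRK2 TG libraries had 233 and 285 footprinting reads against 237 and 312 in non-TG control, and 266 and 513 RNA-Seq reads against 287 and 541. The groups overlapped in both assays, and the TE difference was 0.00. The GS LRRK2 TG libraries had 179 and 211 footprinting reads against a control mean of 216, and 259.8 and 598 RNA-Seq reads against 375. Both footprinting libraries lay below the control mean and the RNA-Seq libraries on either side of it. The TE difference of Slc11a2 was -0.34 with either table's control means, but without GS LRRK2 TG RNA-Seq library B it was 0.38.

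Trf encodes transferrin, the carrier of ferric iron. In LRRK2 KO it had 2279 and 544 footprinting reads against 1522 and 666 in WT, and 1932 and 4316 RNA-Seq reads against 2047 and 2597. LRRK2 KO held both the highest and the lowest library in each assay, so the groups overlapped. The log2 change was 0.37 in footprinting and 0.43 in RNA-Seq, where limma gave 0.15 ± 0.73 (unadjusted p = 0.848) and 0.32 ± 0.73 (unadjusted p = 0.673). Within the library sets the footprinting change was 0.58 in A and -0.29 in B, and the RNA-Seq change -0.08 in A and 0.73 in B. Without LRRK2 KO footprinting library A the footprinting change was -1.01, without WT footprinting library B it was -0.11, and without LRRK2 KO RNA-Seq library B the RNA-Seq change was -0.27. The TE difference of Trf was -0.06. Trf in GS/DA LRRK2 TG libraries had 7401 and 7353 footprinting reads against 7364 and 6817 in non-TG control, and 6499.8 and 10461 RNA-Seq reads against 6872 and 9258. The groups overlapped, and the TE difference was -0.02. GS LRRK2 TG libraries had 6655 and 6319.7 footprinting reads against a control mean of 5637, and 7163 and 10888 RNA-Seq reads against 7798. Both footprinting libraries lay above the control mean, by a log2 change of 0.20 in their mean, and the RNA-Seq libraries on either side of it, with a change of 0.21 and a TE difference of -0.01, or -0.09 with the other table's control means. In bulk tissue, more or fewer cells of a type and more or less RNA per cell cannot be told apart.

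Markers of the cells in which Trf is known are given beside it. Of 12 oligodendrocyte symbols, which include older names, 10 were in each table. Their summed footprinting reads were 59038 in the control mean and 62342 and 69636 in the libraries of GS LRRK2 TG, where their median log2 change was 0.20, the same as that of Trf to 2 decimals. The sums were 64899 and 79449 in non-TG control and 64459.5 and 82063 in GS/DA LRRK2 TG, with a median change of 0.05 beside 0.06 for Trf. In WT they were 18012 and 24643 and in LRRK2 KO 20498 and 21893, with a median change of -0.05 beside 0.37 for Trf. Of 6 choroid plexus symbols, 2 were in each table, Ttr and Clic6, with more footprinting reads of Ttr, and Folr1, Kl, Otx2 and Kcnj13 were absent. Their summed footprinting reads were 1489 and 17613 in non-TG control and 5525 and 1440.3 in GS/DA LRRK2 TG. They were 4239 in the control mean and 1239 and 682 in GS LRRK2 TG, 155 and 143 in WT and 224 and 72.7 in LRRK2 KO. Of 12 symbols of striatal projection neurons, 10 were in each table, led by Ppp1r1b, so the labelled tissue carried its markers, and their median change in footprinting was -0.12 in GS LRRK2 TG, -0.22 in GS/DA LRRK2 TG and 0.13 in LRRK2 KO. In the same order that median was 0.09, 0.12 and -0.01 over 6 of 6 astrocyte symbols, led by Slc1a2, and 0.07, 0.10 and 0.05 over 6, 6 and 7 of 9 microglial symbols, led by Csf1r. It was -0.15, -0.32 and -0.64 over 3 of 5 blood symbols, led by Hba-a2, and the 1 of 8 endothelial symbols present, Slco1c1, had -0.10, -0.23 and 0.13. The part of any cell type in the values of the members was not tested.

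Aco1 encodes cytosolic aconitase, which is IRP1 when it has lost its iron-sulfur cluster. GS/DA LRRK2 TG libraries A and B had 599.7 and 645 footprinting reads of Aco1, against 640.0 and 650.1 in non-TG control, and 420.5 and 680.3 RNA-Seq reads against 491 and 641. The groups overlapped in both assays. LRRK2 KO libraries had 197 and 291 footprinting reads against 192 and 337 in WT, and 337 and 236 RNA-Seq reads against 372 and 262. Library differences again exceeded those between the groups, which overlapped. GS LRRK2 TG libraries had 494 and 512 footprinting reads against a control mean of 499.7, and 392 and 630.1 RNA-Seq reads against 517, with the mean between them in each assay. The TE difference of Aco1 was 0.03 in GS LRRK2 TG (-0.01 with the other table's control means), -0.01 in GS/DA LRRK2 TG and 0.03 in LRRK2 KO.

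Ireb2 encodes IRP2, which is degraded when iron is plentiful. Ireb2 had 1151 and 961 footprinting reads in GS/DA LRRK2 TG libraries A and B, against 1113 and 985 in non-TG control, and 1001 and 149 RNA-Seq reads against 872 and 153. RNA-Seq library A was far above B in both groups, and the groups overlapped in both assays. LRRK2 KO libraries had 275 and 418 footprinting reads against 252 and 452 in WT, and 561 and 265 RNA-Seq reads against 492 and 274. LRRK2 KO lay inside the range of WT in footprinting, and WT inside that of LRRK2 KO in RNA-Seq. GS LRRK2 TG libraries had 875 and 818 footprinting reads of Ireb2 against a control mean of 825, and 736 and 70.0 RNA-Seq reads against 424, with the mean between them in each assay. The TE difference was 0.11 in GS LRRK2 TG (0.24 with the other table's control means), -0.16 in GS/DA LRRK2 TG and -0.13 in LRRK2 KO.

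App encodes the amyloid precursor protein, which carries an IRE-like element in its 5′UTR. App had 32099 and 39311 footprinting reads in GS/DA LRRK2 TG libraries A and B, against 30149 and 38100 in non-TG control, and 21913 and 23275 RNA-Seq reads against 21446 and 22447.5. The groups overlapped; control footprinting and RNA-Seq pairs of App were chosen by the nearest-pair rule, so likeness between sets A and B is partly set by that choice. The TE difference was 0.02, with 0.03 ± 0.39 and unadjusted p = 0.948 by limma. LRRK2 KO libraries had 10640.2 and 2666 footprinting reads against 10316 and 3172 in WT, and 3569 and 11211 RNA-Seq reads against 4248 and 13116. Libraries of the same group lay much further apart than the groups, which overlapped. The log2 change in RNA-Seq was -0.23, with 0.80 without WT library B and -1.28 without LRRK2 KO library B. The TE difference of App was 0.21, with 0.14 ± 1.35 and unadjusted p = 0.922 by limma. It was -0.82 without WT RNA-Seq library B, -1.11 without LRRK2 KO footprinting library A and 1.26 without LRRK2 KO RNA-Seq library B. App in GS LRRK2 TG libraries had 25768 and 30864 footprinting reads against a control mean of 27252.5, and 19493 and 17624 RNA-Seq reads against 19299, with the mean between them in each assay. The TE difference was 0.11, or 0.18 with the other table's control means.

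No member passed the test in the comparisons that had one. By limma, with p adjusted over all transcripts by the Benjamini-Hochberg method, 0 of 8521 transcripts were called in footprinting, RNA-Seq or TE in GS/DA LRRK2 TG (0% each), with 3, 2 and 0 at an unadjusted p under 0.05. In LRRK2 KO 0 of 9538 were called (0% each), with 17, 9 and 4 at an unadjusted p under 0.05. Unadjusted p of the members ran from 0.708 to 0.995 in GS/DA LRRK2 TG over footprinting, RNA-Seq and TE, and from 0.309 to 0.990 in LRRK2 KO. With the library sets as a block, 5 transcripts were called in footprinting in LRRK2 KO and 4 in RNA-Seq, with Lrrk2 among them in both assays. At an unadjusted p under 0.05 the block gave 283, 398 and 34 transcripts in footprinting, RNA-Seq and TE in GS/DA LRRK2 TG and 218, 463 and 185 in LRRK2 KO. In each comparison the TE difference of each member took both signs as the libraries were left out in turn. No member was called, and the member with the lowest unadjusted p under the block was Slc11a2 in LRRK2 KO RNA-Seq, at 0.0575. The sets of the block were assigned from the same reads that were then fitted. These p do not show that the members were alike between groups: the SE of their log2 changes, held in common by both assays, reached 1.19 in GS/DA LRRK2 TG, that of Tfrc.

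Read by a fold of 1.25 in the group means, as a description, Slc11a2 was the only member past it in GS LRRK2 TG with that table's control, with a lower TE, against 2.09% of all transcripts lower and 11.1% higher in TE. In footprinting and RNA-Seq 0 members were past it there, against 1.2% higher and 1.27% lower in footprinting, and 1.69% higher and 9.55% lower in RNA-Seq. With the other table's control means Ftl1 was past it too, higher in RNA-Seq at 0.38, 1 of 8 against 7.67% of all transcripts, and lower in TE at -0.36, where with Slc11a2 it made 2 of 8 against 9.38%; without GS LRRK2 TG RNA-Seq library B these were -1.06 and 1.08. In GS/DA LRRK2 TG 0 members were past it, against 1.71% higher and 1.42% lower in footprinting, 8.41% and 1.19% in RNA-Seq, and 0.548% and 8.16% in TE. LRRK2 KO had Trf higher in footprinting, 1 of 8 against 4.22% of all transcripts, and 0 lower, against 3.88%. In RNA-Seq Trf was higher, against 5.9%, and Tfrc and Slc11a2 were lower, 2 of 8 against 8.39%. In TE Tfrc was higher, against 11.9%, and 0 were lower, against 9.47%. Of these calls, only that of Slc11a2 in LRRK2 KO RNA-Seq kept its direction with each library left out in turn; for calls in GS LRRK2 TG this covers the GS LRRK2 TG libraries alone.

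The members with a 5′UTR element were set against the others by medians. Median TE in the controls was -2.36 for Fth1, Ftl1 and App against -0.05 for the other 5 in the GS LRRK2 TG table, -1.89 against 0.19 in that of GS/DA LRRK2 TG, and -2.61 against -0.26 in WT. That gap was carried by Fth1 and Ftl1, since App lay above the median of the other 5 in the transgenic tables. The median TE difference was 0.02 against 0.03 in GS LRRK2 TG and 0.02 against -0.02 in GS/DA LRRK2 TG, where it was 0.02 and -0.05 over all transcripts. In LRRK2 KO it was -0.18 against 0.03, a gap of -0.21, where it was 0.02 over all transcripts. With each library left out in turn that gap stayed negative, from -0.76 to -0.21. Without RNA-Seq libraries A of both groups it was -0.68, and without RNA-Seq libraries B of both groups it was 0.21. Its direction thus turned where RNA-Seq set B was left out of both groups. In GS LRRK2 TG the gap was -0.11 with the other table's control means. With each library left out in turn it ran from -0.22 to 0.52 in GS LRRK2 TG and from -0.36 to 0.45 in GS/DA LRRK2 TG.

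**Figure D3:**
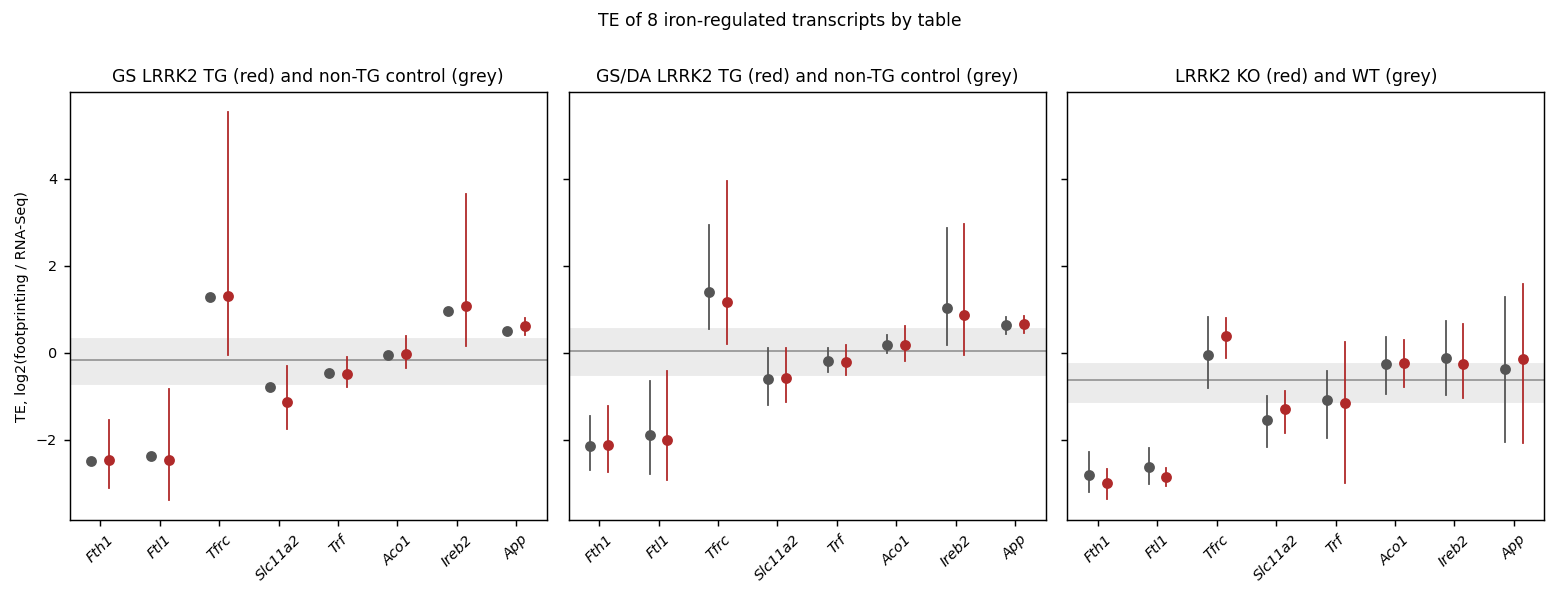
TE (log2) of the 8 transcripts in each control and genotype, with the TE of group means as points and vertical lines from the lowest to the highest pairing of libraries; the grey band marks the quartiles and the line the median of all transcripts in the control. The points of Fth1 and Ftl1 lie lowest in each table, and the lines of control and genotype overlap for all members that have both.

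Other genes of iron handling were read from a list of 53, of which 27, 27 and 28 were in the tables of GS LRRK2 TG, of GS/DA LRRK2 TG and of LRRK2 KO mice, respectively. By limma 0 of them passed in either direction in GS/DA LRRK2 TG or LRRK2 KO, and the lowest unadjusted p was 0.120. Their median log2 change in footprinting was 0.00, 0.00 and 0.03 in the same order, beside 0.00, -0.01 and 0.02 over all transcripts, and their median TE difference was -0.04, -0.02 and 0.02. Past 1.25-fold in footprinting 0 were higher and 2 lower in GS LRRK2 TG, Alad and Blvrb (against 1.27% of all transcripts lower), 0 and 0 in GS/DA LRRK2 TG, and 0 and 1 in LRRK2 KO (3.88% lower). In RNA-Seq they were 0 and 3 (1.69% and 9.55%), 1 and 1 (8.41% and 1.19%) and 0 and 2 (5.9% and 8.39%) in the same order. Past 1.25-fold in TE were 2 higher and 2 lower in GS LRRK2 TG (11.1% and 2.09% of all transcripts), 0 and 1 in GS/DA LRRK2 TG (0.548% and 8.16%), and 2 and 0 in LRRK2 KO (11.9% and 9.47%). Of the other transcripts known to carry an IRE, Epas1, a hypoxia-inducible factor, had TE differences of 0.32, -0.03 and -0.11, and Cdc42bpa, a kinase, of 0.64, -0.59 and -0.14. Those of Cdc42bpa rest on RNA-Seq libraries of 2735 and 524 reads in GS LRRK2 TG and of 5583 and 829 in GS/DA LRRK2 TG, where limma gave -0.25 ± 1.37 for TE. No match to the motif was found in Epas1 or Cdc42bpa, and Alas2, Slc40a1, Cdc14a and Hao1 were not in the tables. Among uptake genes, the zinc and iron carrier Slc39a14 had TE differences of -0.33, -0.02 and 0.40 and the lysosomal channel Mcoln1 of -0.19, -0.02 and 0.11. Ncoa4, which brings ferritin to the lysosome, had the highest TE difference of the storage list in GS LRRK2 TG, at 0.33, and in LRRK2 KO, at 0.23; 97% of the 28-base windows of its CDS, and 93.1% of those of Isca1, occurred elsewhere in the genome. The iron chaperone Pcbp1 had the lowest of that list in GS LRRK2 TG, at -0.13, and in GS/DA LRRK2 TG, at -0.07, and its relative Pcbp2 the highest in GS/DA LRRK2 TG, at -0.01, and the lowest in LRRK2 KO, at 0.03. Among sensing genes, Fbxl5, which targets IRP2 for degradation, had TE differences of 0.01, -0.06 and -0.13 and the receptor Neo1 of 0.21, 0.04 and 0.03. Genes of mitochondrial iron and iron-sulfur clusters ran from -0.20 for Iscu to 0.03 for Isca1 in GS LRRK2 TG, from -0.29 for Isca2 to 0.23 for Lyrm4 in GS/DA LRRK2 TG, and from -0.24 for Slc25a28 to 0.26 for Lyrm4 in LRRK2 KO. Those of haem ran from -0.17 for Cpox to 0.24 for Uros in GS/DA LRRK2 TG and from -0.32 for Uros to 0.44 for Blvrb in LRRK2 KO; Blvrb was the lowest in GS LRRK2 TG, at -0.33.

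Likeness to each member was measured by the Euclidean distance over 6 log2 changes, those in footprinting and RNA-Seq in 3 comparisons, among 1674 candidates with every group mean of at least 500 normalized reads (1675 for members under that level). It is a description, since the transgenic comparisons may share control libraries. Nearest to Fth1 were Thra (distance 0.128) and Mprip (0.138), beside a median distance of 0.496. Nearest to Ftl1 were mKIAA1124 (0.0944) and Stk25 (0.102), beside 0.420. The nearest to App were Glg1 (0.0457) and Atp6v1b2 (0.0831), to Aco1 1110051M20Rik (0.0711) and Cox7a2 (0.0869), and to Ireb2 Nbea (0.0895) and Mt3 (0.103). Tfrc had Brp44l (0.214) and Snap47 (0.230) nearest, and Slc11a2 had Pnmal1 (0.183) and Smarcd1 (0.203). Trf had the most distant neighbours of the 8, Thra (0.339) and Fth1 (0.360), beside a median of 0.750. Ftl1, with LRRK2 KO footprinting means under 500, was not a candidate, and Fth1 was not among the 2 nearest to Ftl1.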

How the data were processed

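The members and gene lists were chosen with earlier results of these data known. The authors aligned reads to mm9 with TopHat2 2.0.11 and Bowtie2 2.2.2, counted them in the CDS and deposited, per group and assay, a mean signal normalized with DESeq 1.20, each table separately. They also deposited 5′UTR folding energies (kcal/mol); their TE, TE difference and *z* score columns were not used. Library reads were recovered from the size-factor grid of the means (Python 3.11.15, numpy 2.4.6, pandas 2.3.3) and fitted with limma 3.58.1 in R 4.3.3 on log2(normalized reads + 10), with genotype, assay and their interaction, calls at an adjusted p under 0.05; this was tested on simulated data with less spread between libraries than these. TE of group means used a pseudocount of 0. Named genes were taken from Lrrk2, the members, other IRE transcripts, the highest and lowest TE difference of each pathway list, the gene with the most footprinting reads of each marker list, and the 2 nearest transcripts. The 1.25-fold call, the nearest-pair choice and some alternatives were chosen after the data were seen.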

Additional observations from a re-analysis of the deposited data

How the results depend on the processing

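The test counts were recomputed with a pseudocount of 1, a filter on low means, median centring and the library sets as a block; member values with a pseudocount of 10, centring, GC correction, mean log2 values and other groupings; both without each library. Alternatives without a library set of both groups, or with the other table's control means, were chosen after seeing the data. No paired analysis was possible by replicate number, because the columns carry none. Sets A and B, matched across groups by the library difference they share, were fitted as a block instead. They were assigned from the same reads that were then fitted. How far this lowers the SE and p under the block was not tested. Counts of transcripts called were 0 in 46 alternatives and in 48 that left out a library, where the lone library of a group is assumed to vary like the others. They were 5 in footprinting and 4 in RNA-Seq in LRRK2 KO with the library sets as a block. The median TE difference of the 5′UTR IRE members minus that of the others ran, without each library in turn, from -0.22 to 0.52 in GS LRRK2 TG, from -0.36 to 0.45 in GS/DA LRRK2 TG and from -0.76 to -0.21 in LRRK2 KO. Under the other alternatives it moved by less than the library spread in 25 and to -0.68 in LRRK2 KO without RNA-Seq libraries A of both groups; it ran from -0.11 to 0.05, -0.05 to 0.19 and -0.68 to 0.21. TE differences of members moved by less than the library spread in 80 and by more in 77 that left out a library, and in 150 and 9 others. A further 3 that left out a library and 1 other were classed as reversed. Without each library Slc11a2 in GS LRRK2 TG ran from -0.82 to 0.38 and Tfrc in LRRK2 KO from -0.13 to 0.83; without LRRK2 KO footprinting library A, Tfrc was -0.01, and without RNA-Seq libraries B of both groups -0.065. With the other table's control means Ftl1 in GS LRRK2 TG was past 1.25-fold in RNA-Seq and TE. The cause was not tested. For GS LRRK2 TG the test counts, the mean of log2 values and leaving out control libraries were not run, because its control libraries could not be recovered. With 2 libraries a group and the spread between them, small differences were not detectable in the main fit. The SE also depended on the model: that of Tfrc in GS/DA LRRK2 TG was 1.19, or 0.31 with the library sets as a block.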

Other observations

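Alad, an enzyme of haem synthesis chosen after its values were seen, had a mean of 555 footprinting reads in GS LRRK2 TG against 995 in non-TG control, a log2 change of -0.84, and a log2 change of -0.71 in RNA-Seq, or -1.03 and -0.72 with the control means of the GS/DA LRRK2 TG table; in GS/DA LRRK2 TG the changes were -0.08 and 0.06. Changes of Alad in LRRK2 KO were -0.15 in footprinting and 0.01 in RNA-Seq. In control footprinting Alad lay -0.19 from the median ratio of the transgenic tables' controls, with 171 transcripts further out. The GS LRRK2 TG changes have no test.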
